A study of Rattus norvegicus with 4 samples.

Results

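The regions described here are small, weak peaks from sequencing of chromatin precipitated for histone H3 lysine 4 trimethylation (H3K4me3). They were called in both the injured and the intact sciatic nerve of the rat, away from any long H3K4me3 peak. They were chosen by a rule on the 2 deposited peak lists, 1 per nerve. The caller's command names no input, and the part of background signal in these weak calls was not tested. Peaks of the lists that overlapped by 1 bp or more were merged, which gave 39013 regions, 27962 of them in both lists. A region was kept where it held exactly 1 peak in each list, where both peaks were at most 300 bp long and under 20 normalized tags, and where it lay more than 5 kb from any peak of 1000 bp or more in either list. A normalized tag is a sequenced fragment end scaled by the authors to a total of 10000000 tags per list. Peaks of 1000 bp or more are called strong peaks below. The rule found 3261 regions. Of the 26181 regions with 1 peak in each list, 4310 passed the length limit and 4035 the tag limit, and 774 of these lay within 5 kb of a strong peak and were left out. Those 774 serve as the comparison set, since every other part of the rule was the same for them. Per the file headers, the peak caller also required 4-fold over a local region of 10000 bp in both lists. Near a strong peak that local region can hold the tags of the strong peak. The part of this filter in any difference from the 774 was not tested. The nearest region inside the distance limit lay 5004 bp from a strong peak and the nearest outside it 4999 bp. The highest tag count inside was 19.9 and the lowest of those left out for it was 20.2, and the lengths on either side of the limit were 300 and 301 bp.

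Chromatin came from adult male Sprague Dawley rats, which the labels also mark "P42" under a passage tag whose meaning is not given. The transected group was nerve tissue distal to a cut of the sciatic nerve, taken 1 day after surgery, and the sham group was the contralateral nerve of limbs that received a skin incision alone. Each group had 2 samples, and the authors pooled them before calling peaks, so each nerve has 1 list and no value below has a replicate spread. Chromatin was cut with micrococcal nuclease and precipitated with an antibody to H3K4me3. Nothing in the labels says whether a sample held nerve from 1 animal or from several. Depth was 22595649 tags for sham and 21307148 for transected nerve.

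H3K4me3 is written by the SET1/MLL (COMPASS) methyltransferases and is densest around the start sites of active and poised genes, above all at CpG-rich promoters. Enhancers carry mainly the monomethylated form of the same residue, but active enhancers and unannotated start sites can show small amounts of H3K4me3. A sciatic nerve holds Schwann cells, fibroblasts, endothelial and immune cells, and after axons are cut Schwann cells lose their myelin programme and take on a repair state. In chromatin from whole nerve, a mark on fewer cells and a weaker mark per cell cannot be told apart. No source used here gives the genome build of the lists. The regions are therefore given by position, and neither genes, nor the tissue's marker genes, nor sequences were assigned to them.

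The small distal regions were at the lower end of what the caller could report, in both nerves alike. In sham nerve their normalized tags ran from 2.66 to 19.9 with a median of 7.08, which is a median of 16 tags before scaling. In transected nerve the range was 2.35 to 19.7 with a median of 6.57, or 14 tags before scaling. The caller's threshold was 8 tags in both lists, per the file headers, and the lowest called regions held 6 and 5 tags. The upper limits of these ranges were set by the rule. The regions were 9.09% of all sham peaks and 9.85% of all transected peaks, but held only 0.291% and 0.279% of the tags in peaks. The findPeaks score, the authors' value per peak, had a median of 11 in sham and 10 in transected nerve, with highest values of 33 and 27. Clonal fold, which rises where tags pile up on few positions, exceeded 1 in either list in 6 of the 3261 regions.

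The 5 regions with most tags had close values in the 2 nerves. On chromosome 2, the region at 196999809 to 197000056 had 19.5 normalized tags in sham against 19.2 in transected nerve. The region at 62031874 to 62032121 on chromosome 5 and the region at 74525319 to 74525519 on chromosome 8 both had 19.5 and 18.8. On chromosome 4, 232363730 to 232363963 had 19.9 and 18.3 tags, and on chromosome 8, 50269705 to 50269940 had 19.5 and 18.3. These are the regions closest to the limit of 20 in both lists at once, so a like value in both was fixed by how they were picked. They stood at very different distances from a strong peak, from 27.8 kb for the chromosome 5 region to 294 kb for the chromosome 2 region.

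Tag counts of the small distal regions moved together between the nerves, though loosely. Over the 3261 regions, Pearson's r of log2 tags between the lists was 0.47 and Spearman's rho was 0.44, as a description of points that share library and depth and that the rule cut at both ends. Among the 774 regions nearer to strong peaks the values were 0.39 and 0.33. The ratio of transected over sham tags was set relative to its median over the 27962 regions in both lists (-0.07 on the log2 scale). After centring, the small distal regions had a median log2 ratio of 0.016 (95% order-statistic interval 0 to 0.046), and 2177 of them (66.8%) differed by less than 1.5-fold. Without centring the median was -0.054, so its sign depends on the scaling.

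**Figure D1:**
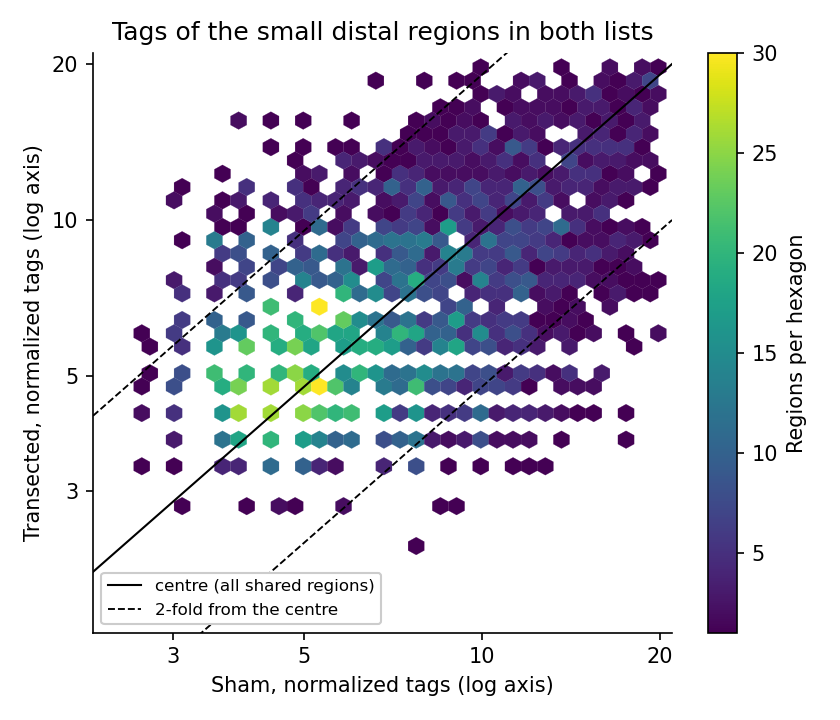
Normalized tags of the 3261 small distal regions in the sham list (x, log axis) and the transected list (y, log axis), with the number of regions in each hexagon shown by colour. The solid line is the median ratio of all 27962 regions in both lists, and the dashed lines are 2-fold from it; 198 regions lay above the upper dashed line and 169 below the lower one.

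Larger differences were present in both directions. After centring, tags were 2-fold higher or more in transected nerve in 198 regions (6.07%, 95% exact interval 5.28 to 6.95) and 2-fold lower or more in 169 (5.18%, interval 4.45 to 6.0). Over all 27962 regions in both lists, 3.17% passed the upper limit and 5.95% the lower one. At 1.5-fold, 574 of the 3261 small distal regions were higher and 510 lower. Of all 27962 regions in both lists, 2126 (7.6%) were higher and 3845 (13.8%) lower. The rule limited tags in both lists, so nothing is read from the contrast. The split depended on the scaling: without centring, 163 were higher and 209 lower. The log2 ratio had a standard deviation of 0.62, where counting error in these tags alone gives 0.54. In the regions from 6.88 to 9.12 mean tags these values were 0.72 and 0.51, and from 9.13 to 19.4 mean tags they were 0.63 and 0.42. From 5.455 to 6.865 mean tags they were 0.61 and 0.57. In the 821 weakest regions, from 2.96 to 5.45 mean tags, the observed value of 0.48 was below the 0.65 of counting error. The caller's threshold limits how weak these regions can be, and their limit of mean tags bounds them from above. That threshold is no strict floor on the tag counts used here. The lowest findPeaks score was 8 in both lists, while tags before scaling went down to 6 in sham and 5 in transected nerve. The part of either in the low value was not tested.

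Among regions with at least 8 mean normalized tags, the highest ratios belonged to regions that were 1 calling window (150 bp) wide in sham and wider in transected nerve. On chromosome 1, the region at 234733350 to 234733602 had 3.98 normalized tags in sham against 15.5 in transected nerve, 9 and 33 tags before scaling, which is 4.09-fold higher after centring (log2 2.03, with a 95% counting interval of 0.93 to 3.28). The call was 150 bp long in sham but 252 bp in transected nerve. Divided by called length, the log2 ratio was 1.20. The region at 75486427 to 75486765 on chromosome 8 had the same 3.98 and 15.5 tags, with only 26.9% of the merged length called in both lists. On chromosome 6, 22234438 to 22234704 had 4.43 and 15.5 tags (log2 1.88, interval 0.82 to 3.06). The other 2 of the 5 highest were 10374380 to 10374610 on chromosome 20, with 4.87 and 15.5 tags, and 107304176 to 107304421 on chromosome 15, with 4.43 and 13.6. In each of the 5 the sham call was 150 bp and the transected call between 230 and 279 bp. The intervals cover counting error only, and repeated reads of 1 molecule could not be told from separate molecules. They do not allow for the choice of these regions by their high ratios. Such a choice favours ratios that counting error has raised, so the intervals are not read as a test of a difference.

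The lowest ratios mirrored this, with a call of 1 window in transected nerve and a longer call in sham. On chromosome 20, the region at 11350147 to 11350393 had 18.1 normalized tags in sham against 3.75 in transected nerve, 41 and 8 tags before scaling, which is 4.60-fold lower after centring (log2 -2.201, with a 95% counting interval of -3.51 to -1.09). The call was 246 bp long in sham but 150 bp in transected nerve. Divided by called length, the log2 ratio was -1.58. On chromosome 12, 40066636 to 40066914 had 18.1 and 4.22 tags (log2 -2.03, interval -3.26 to -0.97), and its nearest neighbour of the same kind lay 2.196 kb away. On chromosome 8, 123544469 to 123544764 had 12.8 and 3.29 tags. The remaining pair was 22724007 to 22724295 on chromosome 20, with 15.0 and 4.22 tags, and 253269491 to 253269684 on chromosome 1, with 13.3 and 3.75. All 5 were 150 bp long in transected nerve and between 187 and 295 bp in sham. These regions were picked by their low ratios, which the intervals do not allow for, so the intervals are not read as a test here either.

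The same relation between length and tags held over all the small distal regions. The 884 regions of 1 window in both lists (27.1%) had medians of 4.87 normalized tags in sham against 5.16 in transected nerve, which is 11 tags before scaling in either. Equal tags before scaling give a centred log2 ratio of 0.15, and this was also the median of the 884. The 456 regions of 1 window in sham alone had medians of 4.87 and 7.51 tags and a median log2 ratio of 0.64. The 876 regions of 1 window in transected nerve alone had 7.97 and 5.63 tags and a median of -0.43. Divided by called length, the medians of these 2 groups were 0.03 and 0.03. The 1045 regions wider than 1 window in both lists had 9.29 and 8.92 tags and a median log2 ratio of 0.04. Of the 198 regions with a ratio of 2-fold or more, 122 were of 1 window in sham alone, and of the 169 at least 2-fold lower, 120 were of 1 window in transected nerve alone. As tags per kb, 83 were past 2-fold upward and 73 downward. The share of all regions in both lists past this limit as tags per kb was not computed, so nothing is read from these counts. A longer call takes in more tags, so length and tags are linked by construction, and tags per kb compare unlike stretches where lengths differ.

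Called edges of the small distal regions typically lay within a fraction of 1 calling window of each other in the 2 lists, with a tail of wider differences. The median distance between the 2 starts was 27 bp and between the 2 ends 31 bp, with starts at most 279 bp and ends at most 263 bp apart. Starts agreed within 25 bp in 1557 regions (47.7%, 95% exact interval 46.0 to 49.5) and ends in 1378 (42.3%, interval 40.6 to 44.0). Both edges agreed within 25 bp in 846 regions (25.9%) and within 10 bp in 328 (10.1%). The part of the merged length called in both lists had a median of 70.5%, and it was under 50% in 495 regions (15.2%). The rule required an overlap of 1 bp and set no closer agreement.

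Both edges were identical in 15 regions. The 3 of these with most tags were 24784533 to 24784683 on chromosome 20, with 12.8 normalized tags in sham against 11.7 in transected nerve, 11043046 to 11043196 on chromosome 7, with 10.6 and 11.3, and 7353828 to 7353978 on chromosome 14, with 7.97 and 11.3. Each was 150 bp long in both lists. At the other end, the region farthest from a strong peak, on chromosome X at 99522498 to 99522827, was 285 bp long in the sham list but 150 bp long in the transected list, and 32.2% of its merged length was common.

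Regions of 1 window in both lists show the offset of the call without any difference in length. Over these 884 regions the median offset was 20 bp (95% order-statistic interval 18 to 21). It was at most 10 bp in 260 regions (29.4%), at most 25 bp in 534 (60.4%) and over 75 bp in 65 (7.35%), where any offset under 150 bp would have met the rule. Signed, the median was -1 bp (interval -3 to 2), so neither list was shifted along the chromosome against the other.

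**Figure D2:**
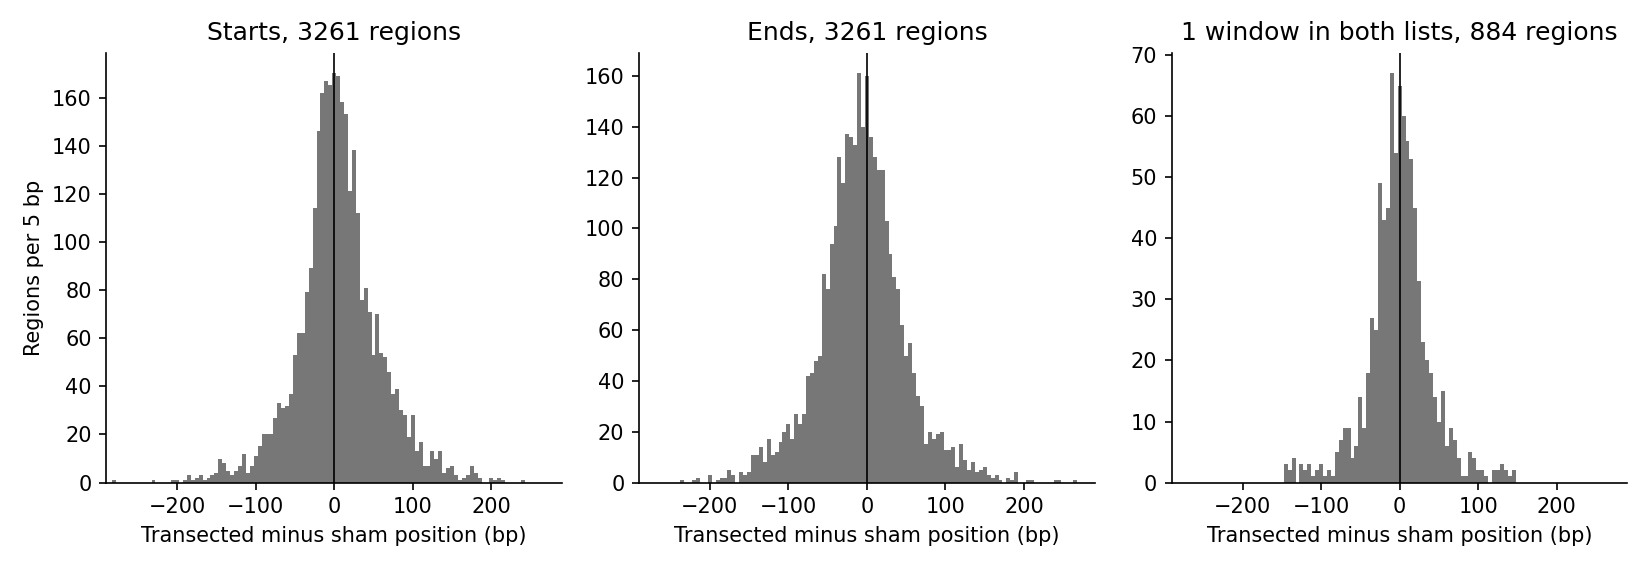
Position in the transected list minus position in the sham list, in bp, for the starts and ends of the 3261 small distal regions and for the 884 regions that were 1 calling window wide in both lists; bars count regions per 5 bp. All 3 distributions were single-peaked near 0, with median absolute offsets of 27, 31 and 20 bp.

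Where lengths differed, the sham call was the longer one more often. The median called length was 189 bp in sham against 150 bp in transected nerve, and 1467 regions were longer in sham, 875 longer in transected nerve and 919 of the same length. Among the 6522 calls the shortest above 1 window was 187 bp, so no call had a length between 150 and 187 bp. From 187 to 200 bp there were 1491 calls. The transected call lay within the sham call in 675 regions and the sham call within the transected call in 345. In 1163 regions the transected call was shifted to lower positions at both edges and in 1063 to higher positions. Transected starts lay a median of 3 bp inward and transected ends 7 bp inward of those in sham. The fragment length in the file headers was 144 bp for sham and 132 bp for transected nerve, and the sham list was the deeper one; the part of either in the longer sham calls was not tested.

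Split by mean tags, starts agreed within 25 bp most often in the regions with most tags, without a steady trend below them. The share was higher still, 60.4%, in the 884 regions of 1 window in both lists, which had a median of 11 tags before scaling in either. Their median common part of the merged length was 76.5%. Among the 821 regions with fewest mean tags, 43.6% of starts agreed within 25 bp (95% exact interval 40.2 to 47.1), and among the 806 with most 53.2% did (interval 49.7 to 56.7). In the 813 and 821 regions between them the share was 48.3% (interval 44.9 to 51.8) and 45.9% (42.5 to 49.4), in order of tags. The common part of the merged length had medians of 67.4%, 69.5%, 70.4% and 74.3% from the fewest to the most tags. Regions of the same size near strong peaks had somewhat looser edges: of the 774 within 5 kb, 40.7% agreed within 25 bp at the start (interval 37.2 to 44.3), and the median common part was 66.9%. Their 186 pairs of 1-window calls had a median offset of 27.5 bp (interval 23 to 33). Their tags before scaling had medians of 14 in both lists, against 16 and 14 in the distal regions, and the part of this in the looser edges was not tested. Strong regions with 1 peak in each list (10500) had a median start difference of 60 bp and a median common part of 92.2%. The small regions thus had the smaller offsets in bp, under a rule that capped their length, and the smaller share of length in common.

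The small distal regions were sparser the farther they lay from the nearest strong peak. Their median distance was 42.3 kb (95% order-statistic interval 40.4 to 45.5), the middle of the set ran from 18.7 kb at the first quartile to 102 kb at the third quartile, and distances below 5 kb were excluded by the rule. Beyond 100 kb lay 827 regions (25.4%), beyond 500 kb 97 (2.97%) and beyond 1000 kb 27 (0.828%). A strong peak stood on both sides of 3255 of the 3261. Set against the space between strong peaks at each distance, their density was 3.17 per Mb at 5 to 10 kb (95% exact Poisson interval 2.84 to 3.52). It was 2.51 per Mb at 20 to 50 kb (interval 2.35 to 2.67), 1.06 at 100 to 200 kb (0.958 to 1.16) and 0.126 beyond 500 kb (0.102 to 0.154), which is 25.1-fold below the density at 5 to 10 kb. Gaps in the assembly and sequence where tags cannot be placed were not removed from this space.

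Peaks found in 1 nerve alone were also sparser far from strong peaks. Small weak distal peaks of the sham list with no partner in the other list numbered 4.44 per Mb at 5 to 10 kb and 0.205 beyond 500 kb, a 21.6-fold difference. Those of the transected list numbered 2.79 and 0.0585 per Mb, a 47.7-fold difference. Median distances to a strong peak were 44.5 kb for the 4602 sham peaks with no partner (interval 42.5 to 46.7) and 35.6 kb for the 2295 transected ones (interval 33.5 to 37.5).

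Level and ratio of the small distal regions changed little with distance. Median tags in sham nerve lay between 6.64 and 7.52 in all 7 distance ranges from 5 kb to beyond 500 kb, and those in transected nerve between 6.10 and 7.04. At every distance the rule held tags under 20 in both lists, and the caller's threshold, though no strict floor, limited how low they could be. Little room was thus left for the level to differ, and nothing is read from its likeness. The median centred log2 ratio ran from 0.07 (95% order-statistic interval 0.00 to 0.15) at 5 to 10 kb to -0.06 (interval -0.12 to 0.00) at 100 to 200 kb and 0.02 (interval -0.07 to 0.15) beyond 500 kb. In the 774 regions within 5 kb it was 0.15, the value of equal tags before scaling. Of those 774, 76 (9.82%, 95% exact interval 7.81 to 12.1) passed the 2-fold limit upward and 28 (3.62%, interval 2.42 to 5.19) downward. Over all regions in both lists the shares were 3.17% and 5.95%. As tags per kb, 23 and 9 of the 774 passed it, and the share of all regions was not computed. The rule limited tags in both lists for the 774 too, so nothing is read from these counts.

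The 3 regions nearest to a strong peak had more sham tags than most of the small distal regions. Nearest to a strong peak was 247992511 to 247992771 on chromosome 4, at 5.004 kb, with 14.6 normalized tags in sham against 9.86 in transected nerve. Next came 82723303 to 82723610 on chromosome 1, at 5.02 kb with 13.7 and 7.98 tags, and 74950526 to 74950791 on chromosome 11, at 5.025 kb with 13.7 and 9.86. All 3 were above the upper quartile of 9.74 tags in sham nerve, while the median of all regions at 5 to 10 kb was 6.64. Farthest was the chromosome X region named above, 4572 kb from any strong peak, with 8.85 and 4.22 tags (log2 -0.998, 95% counting interval -2.32 to 0.20). On chromosome 6, 92601248 to 92601541 lay 2740 kb away and had 11.9 and 11.7 tags, and on chromosome 14, 94267181 to 94267446 lay 2578 kb away and had 7.08 and 7.04. Counts of the chromosome 6 and 14 regions were thus close in the 2 nerves, but few tags stood behind them. The 95% counting intervals of their log2 ratios were -0.80 to 0.88 and -1.06 to 1.17. The farthest region, on X, had the lower count in transected nerve.

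**Figure D3:**
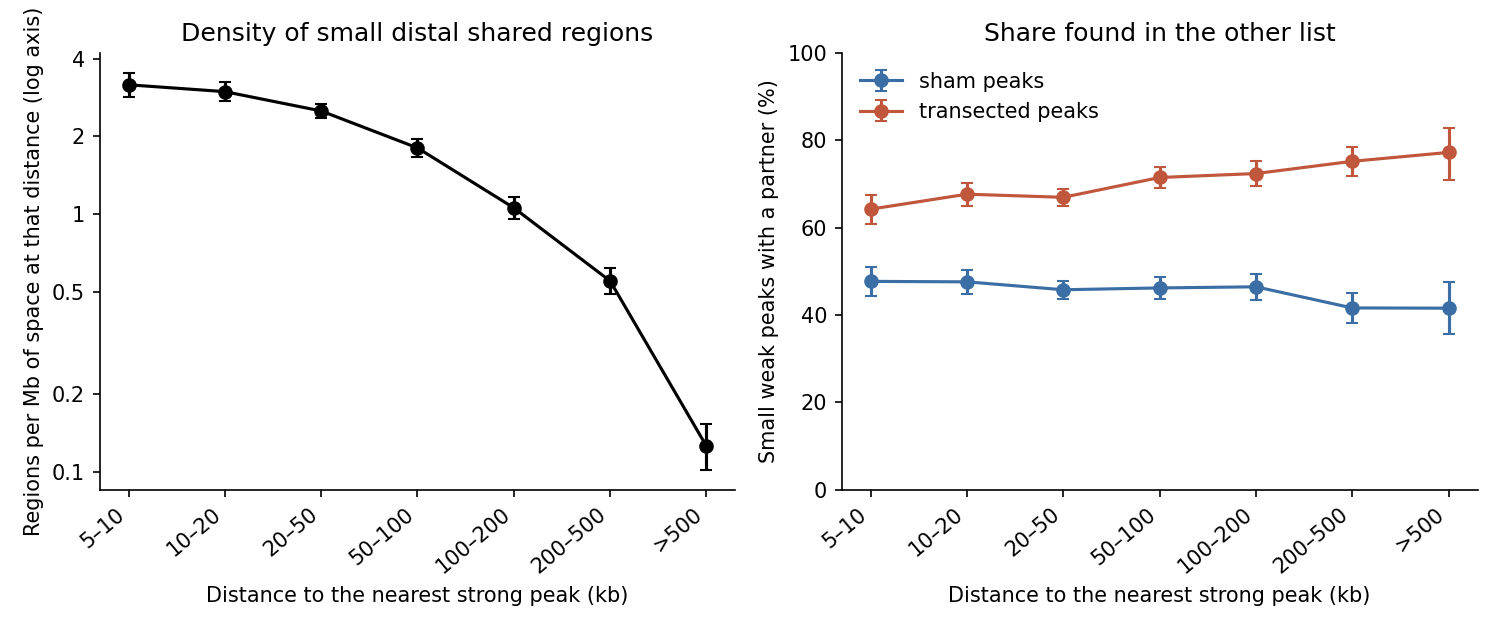
Left, density of the small distal regions in both lists, per Mb of space at each distance from the nearest strong peak (log axis), with exact 95% Poisson intervals; it was 3.17 per Mb at 5 to 10 kb and 0.126 beyond 500 kb. Right, share of all small weak peaks of each list that overlapped a peak of the other list, by the same distances, with exact 95% intervals; the transected share ran from 64.2% to 77.2% and the sham share from 47.7% to 41.5%.

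The share of small weak distal peaks that were found again in the other nerve differed between the lists. Of the 8502 such peaks in the sham list, 3900 (45.9%, 95% exact interval 44.8 to 46.9) overlapped a transected peak. Of the 7483 in the transected list, 5188 (69.3%, interval 68.3 to 70.4) overlapped a sham peak. The partner was wider than 300 bp for 605 of the sham peaks and for 1837 of the transected peaks. The 3261 regions described here hold 38.4% of the sham peaks and 43.6% of the transected ones. Peaks without a partner were weaker and narrower: their median was 4.87 normalized tags in sham against 4.69 in transected nerve, and 65.8% and 75.9% were 1 window wide. Some lay next to a peak of the other list without touching it, 9.34% of the sham ones and 17.8% of the transected ones being within 370 bp.

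Peaks with more tags were more often found again in the other list. Of sham peaks with 6 to 9 tags before scaling, 23.8% had a partner (95% exact interval 22.0 to 25.7). The share was 56.7% at 15 to 19 tags (interval 54.2 to 59.2) and 94.97% at 30 to 45 tags (interval 92.5 to 96.8). Of transected peaks with 5 to 9 tags, 44.2% had a partner (interval 41.7 to 46.8), and the share was 81.5% at 15 to 19 tags (79.4 to 83.5) and 98.8% at 30 to 42 tags (97.2 to 99.6). The transected share was the higher one in all 7 tag ranges. The sham list is deeper and longer, with 35856 peaks against 33100, and the part of this in the difference was not tested.

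**Figure D4:**
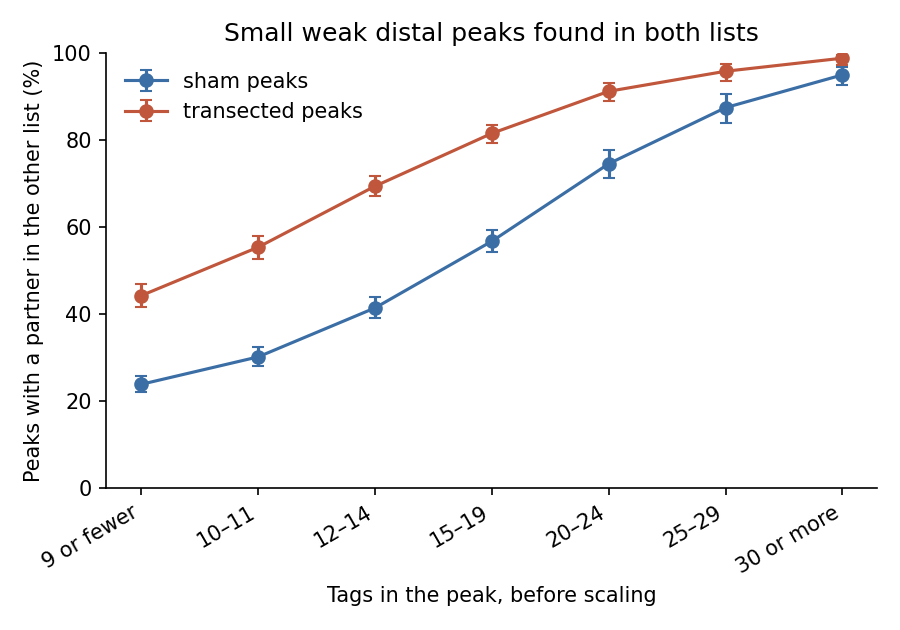
Share of small weak distal peaks of each list that overlapped a peak of the other list (y, percent), by tags in the peak before scaling (x), with exact 95% intervals. Both shares were higher in peaks with more tags, from 23.8% to 94.97% for sham peaks and from 44.2% to 98.8% for transected peaks.

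Far from strong peaks the shares of the 2 lists lay farther apart. The transected share was 64.2% at 5 to 10 kb (95% exact interval 60.9 to 67.5), 71.5% at 50 to 100 kb (69.0 to 73.8) and 77.2% beyond 500 kb (70.8 to 82.8). The sham share was 47.7% (interval 44.4 to 51.0), 46.2% (43.8 to 48.6) and 41.5% (35.6 to 47.7) at the same distances. Median tags of the transected peaks were 6.10 in all 7 ranges, and those of the sham peaks lay between 5.31 and 5.75. The number of sham peaks for each transected peak was 1.09 at 5 to 10 kb, 1.18 at 50 to 100 kb and 1.35 beyond 500 kb, so the excess of sham calls was larger far from strong peaks. These intervals treat peaks as independent and describe 1 pair of lists.

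Most small distal regions had no other region of the same kind within 50 kb, but few were far from every called region. A region of any kind lay within 50 kb of 2781 of them (85.3%) and within 10 kb of 1521 (46.6%). The median distance to the next region of the same kind was 150 kb (95% order-statistic interval 140 to 161). Another one lay within 50 kb for 820 of the 3261 (25.1%, 95% exact interval 23.7 to 26.7), within 10 kb for 272 (8.34%) and within 1 kb for 76 (2.33%). Linked by gaps of 50 kb or less, 2441 were single and 820 fell into 379 clusters, of which 331 were pairs, 35 were triplets, 12 held 4 regions and 1 held 5. Peaks found in 1 list alone had such a region nearby at least as often: 26.2% of sham small weak distal peaks with no partner had one of the 3261 within 50 kb (interval 24.9 to 27.5), and 29.9% of transected ones did (28.0 to 31.8). Regions in both lists were thus not found to stand closer to each other than peaks of 1 list stand to them.

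The cluster with most regions, ranked by their number and not by their spacing, was on chromosome 15 from 28073343 to 28138704, with 5 regions in 65.4 kb. Its first region, 28073343 to 28073532, had 3.98 normalized tags in sham against 7.98 in transected nerve, and the second, 28073787 to 28073980, had 5.31 and 4.22. The third, 28087618 to 28087819, had 3.98 and 6.10. The fourth, 28126666 to 28126857, had 11.9 and 4.22, and the fifth, 28138533 to 28138704, had 7.52 and 6.57. No common direction ran through the cluster: centred log2 ratios were 1.07, -0.26, 0.69, -1.43 and -0.12, and the 95% counting interval left out 0 for the fourth alone (-2.70 to -0.30). A strong region called over 3450 bp in sham and over 3430 bp in transected nerve, at 28093879 to 28097610, stood inside the cluster with 914.7 and 979.0 tags, and the third region was 6.06 kb from it. 2 further weak regions of the transected list alone, with 10.8 and 6.10 tags, lay in the same stretch.

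**Figure D5:**
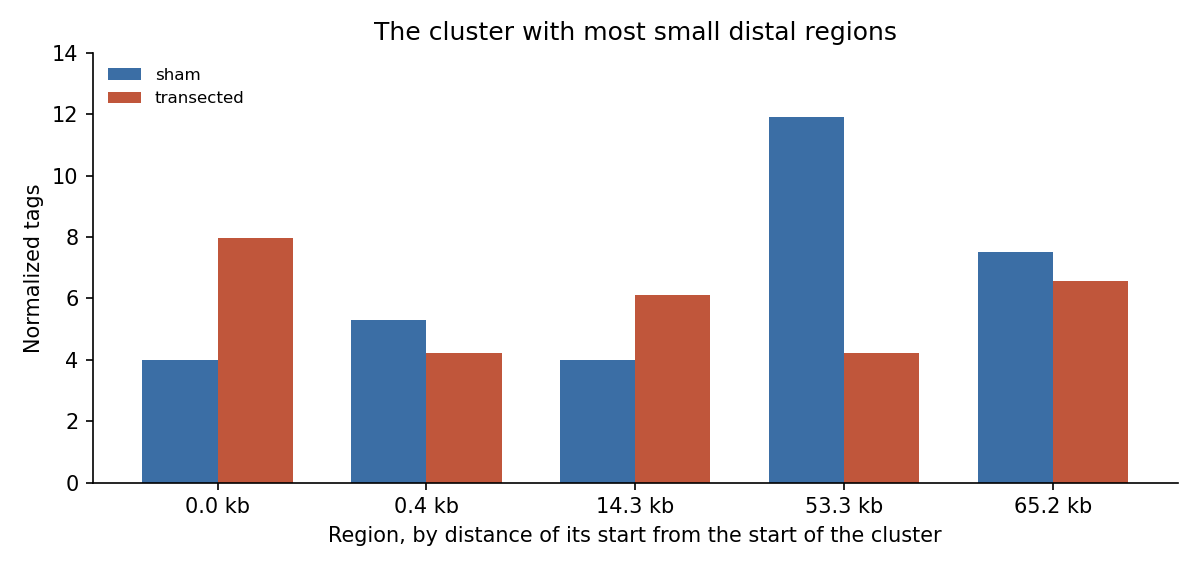
Normalized tags (y) of the 5 small distal regions of the cluster with most regions, on chromosome 15, in the sham and the transected list (bars from 0), ordered by distance from the start of the cluster (x, kb). Tags were higher in transected nerve in the regions at 0.0 and 14.3 kb and lower in the regions at 0.4, 53.3 and 65.2 kb.

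The closest neighbours were 38 pairs separated by at most 1 kb, with a median gap of 348 bp and a median of 585 bp from centre to centre in the sham list. In 20 of the 38 pairs both regions had ratios on the same side of 0. The caller kept windows at least 370 bp apart, per the file headers, and the smallest centre-to-centre distance was 399 bp. Considering regions of every kind, the nearest was a median of 11.3 kb away (95% order-statistic interval 10.7 to 12.1), and 497 of the 3261 (15.2%) had one within 1 kb. It was a strong region in 726 cases (22.3%), another region in both lists in 1100 (33.7%), a region of the sham list alone in 708 (21.7%), of the transected list alone in 337 (10.3%), and one of the same kind in 390 (11.96%). In the same order, these kinds made up 13360, 11425, 7075, 3892 and 3261 of all 39013 regions. The rule barred strong peaks, and no other kind, within 5 kb, so nothing is read from the shares.

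Small distal regions were present on all 20 autosomes and on X, and more were found where strong regions were dense. Over the span from first to last region of each chromosome they numbered 1.13 per Mb, where strong regions numbered 4.62 per Mb. Chromosome 12 had the highest density, 2.17 per Mb (95% exact Poisson interval 1.798 to 2.60), with chromosome 20 next at 2.13 (interval 1.77 to 2.55). Across the 21 chromosomes, density of small distal regions and of strong regions had a Pearson's r of 0.84 and a Spearman's rho of 0.89, as a description of chromosomes that share the same libraries. Chromosome X was lowest on both scales, with 56 regions, 0.365 per Mb (interval 0.275 to 0.473) and 14.5 for each 100 strong regions, against 24.4 over all chromosomes and 32.3 on chromosome 11. Male rats carry 1 X chromosome, and the part of its copy number in this count was not tested. The X regions that were called had medians of 8.41 normalized tags in sham (95% order-statistic interval 6.64 to 9.74) and 6.33 in transected nerve (5.63 to 8.45), against 7.08 and 6.57 on the autosomes.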

How the data were processed

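H3K4me3 ChIP-seq of rat sciatic nerve was analysed from 2 deposited peak lists, each called by HOMER findPeaks on the pooled tags of 1 group, per the file headers, in stitched windows of 150 bp at a false discovery rate of 0.001. The command names no input. The submitters' processing notes also name CASAVA (1.8.2) and Bowtie; the genome build and other versions were not given in the sources used here. Normalized tag counts are a signal that was scaled by the authors to 10000000 tags. The region length (other unit, bp), findPeaks score and clonal fold (a ratio) were used as deposited. Tags before scaling were whole within 0.12 for 100% of peaks.

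Regions were merged and measured with Python 3.11.15 (pandas 2.3.3, scipy 1.17.1), distances being edge to edge. Scripts were tested on simulated lists and tags. Intervals of shares, densities and medians are Clopper-Pearson, exact Poisson or order-statistic (95%). They treat regions or peaks as independent and describe these lists only, not a spread between animals or samples. The counting intervals of single regions cover counting error alone and do not allow for the choice of regions by extreme ratio. With 1 pooled list per condition no test between conditions was made. The members, limits and distance ranges were chosen with earlier results of these data known. Named regions are those with most tags, extreme ratios at 8 or more mean tags, extreme distances, closest edges, and the cluster with most members. 13 alternatives were tried.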

Additional observations from a re-analysis of the deposited data

How the results depend on the processing

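No paired analysis was possible because the authors pooled the 2 samples of each group before calling peaks, and no sample could be left out for the same reason. With a width limit of 200 bp there were 1745 small distal regions, and with the upper 75% of peaks by findPeaks score 2004, a cut that also drops some strong peaks; under the other 5 changes of the rule the number stayed within 1.5 times of 3261. The share of sham peaks with a partner was 39.5% at 200 bp, 39.5% at 10 normalized tags, 38.2% at an overlap of at least 50% of both peaks and 40.5% by score. The transected share was 63.6%, 64.1%, 48.8% and 60.4% in the same order, and 67.8% with strong peaks of 500 bp or more, and it was above the sham share in each. The median distance to a strong peak was 40.3 kb at 10 tags, 50.9 kb beyond 10 kb, 37.6 kb beyond 2 kb and 30.8 kb with strong peaks of 500 bp or more. The share with another such region within 50 kb was 14.4% at 200 bp, 18.5% at 10 tags, 22.5% beyond 10 kb, 26.9% beyond 2 kb, 22.4% with strong peaks of 500 bp or more, 23.4% at 50% overlap and 15.9% by score; within 20 kb it was 13.3% and within 100 kb 39.6%. Starts agreed within 25 bp in 58.4% at 200 bp, 51.8% at 50% overlap and 54.6% by score, and within 10 bp in 21.2%. The median common length was 76.1% at 200 bp, 69.8% at 10 tags, 72.8% at 50% overlap and 73.7% by score. The median log2 ratio was 0.062 at 200 bp, 0.068 at 10 tags and -0.054 without centring. Regions at least 2-fold higher and lower numbered 94 and 57 at 200 bp, 108 and 46 at 10 tags, 95 and 90 by score and 83 and 73 as tags per kb, and 574 and 510 were past 1.5-fold. At 200 bp and 10 tags the shares of all regions in both lists remain the 3.17% and 5.95% given above. By score and as tags per kb they were not computed, and nothing is read from any of these counts. Fewer regions entered under the narrower limits. The threshold of 8 tags limits what either list can show.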
